A study of Mus musculus with 6 samples.

Results

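A set of 10 genes of the BCL-2 family, the effectors and pro-survival partners that the protein BIM acts on, was followed in hepatocytes with and without Bim. They were taken by name, as 10 of the 48353 genes in the deposited annotation: the effectors Bax, Bak1 and Bok, the pro-survival genes Mcl1, Bcl2l1, Bcl2l2, Bcl2 and Bcl2l10, and the more distant relatives Bcl2l12 and Bcl2l13. Polyadenylated RNA was sequenced from 3 knock-out and 3 wild-type samples of hepatocytes, the parenchymal cells of the liver, all from C57BL/6 mice. The knock-out group carried Bim(lox/lox) and Alb-Cre, in which the albumin promoter drives the Cre recombinase, so that the gene is deleted in hepatocytes. The labels call the other group wild-type and do not say whether its mice carried the floxed alleles or Cre. Both groups were isolated by collagenase perfusion. The protocol speaks of male mice on chow or on a high-fat diet begun at 8 to 10 weeks of age and kept up for 14 to 20 weeks. Which diet a given sample had, and the age of its mouse, are not stated. Separate animals are not named either, so a p-value here speaks only of the spread among these libraries, part of which may be technical.

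The BCL-2 family decides whether the outer mitochondrial membrane stays intact. BAX and BAK, once active, assemble into pores that release cytochrome c, and the pro-survival proteins hold them and their activators back. BIM is a BH3-only protein: it inserts a short helix, the BH3 domain, into a groove on the surface of the pro-survival proteins, and can activate BAX and BAK directly. In hepatocytes MCL-1 and BCL-XL, the product of Bcl2l1, are known as the main guards of survival, and loss of either in mouse liver leads to hepatocyte apoptosis.

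The coding stretch for the start of the BH1 region, which lines the groove that receives BIM, is shown to let the family members be compared base by base. Each line runs 5′ to 3′ along the coding strand, with the codons that match the pattern ANNTGGGGN in the reading frame in capitals (reading frame on the coding strand alone, GENCODE M21 transcripts on GRCm38). The pattern was chosen after the sequences had been seen.
Bax: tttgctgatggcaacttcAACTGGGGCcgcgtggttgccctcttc
Bak1: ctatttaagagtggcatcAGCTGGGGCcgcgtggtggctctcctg
Bok: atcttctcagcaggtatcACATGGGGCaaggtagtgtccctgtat
Mcl1: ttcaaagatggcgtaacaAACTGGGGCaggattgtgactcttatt
Bcl2l1: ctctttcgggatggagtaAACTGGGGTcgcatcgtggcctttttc
Bcl2l2: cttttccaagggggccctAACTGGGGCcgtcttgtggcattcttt
Bcl2: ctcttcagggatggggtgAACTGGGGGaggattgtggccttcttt
The 7 stretches lie at chr7:45465216-45465260 (Bax, minus strand), chr17:27021302-27021346 (Bak1, minus), chr1:93689273-93694091 with an intron inside (Bok, plus), chr3:95659832-95659876 (Mcl1, plus), chr2:152829559-152829603 (Bcl2l1, minus), chr14:54884637-54884681 (Bcl2l2, plus) and chr1:106712437-106712481 (Bcl2, minus). The pattern was found in frame in 7 of the 10 genes and in 1783 of 21562 protein-coding genes (8.27%). It was not found in Bcl2l10, Bcl2l12 or Bcl2l13.

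The deposited values are, for each annotated transcript, an estimated number of reads and an RPKM, reads scaled to transcript length and to library size. RPM stands below for reads scaled to library size alone. Both were summed over the transcripts of a gene. The estimated reads of a library came to between 25335211 and 31130519. Zeros were counted at loci with reads in at least 3 libraries and a median above 100 reads over the libraries with reads. There, exact zeros made up 5906 of 32778 library values (18.02%) where the locus had at least 2 annotated transcripts. Where it had 1, they made up 2 of 12822. A zero at a locus of several transcripts may thus be a failed estimate, and such genes are given library by library. Bcl2l11, which encodes BIM, had 0 estimated reads in each of the 3 knock-outs, against 0, 680 and 478 in wild-type replicates 1, 2 and 3. Since wild-type replicate 1 was at 0 too, and the locus has 8 annotated transcripts, these zeros do not by themselves check the genotype labels. Wild-type replicate 1 stood apart by its macrophage genes: the summed RPKM of 12 macrophage markers was 4524 there and 78.6 to 140.0 in the other 5 libraries. All 12 had their highest value in that library, and in the other 5 Adgre1, Clec4f, Vsig4 and C1qc were at 0. Other cell types were raised there too. The 7 endothelial markers, 4 of them at 0 throughout, summed to 43.7 RPKM in wild-type replicate 1 and to 0 to 1.86 in the other 5 libraries. Of 5 neutrophil markers only Csf3r was read, at 13.4 RPKM in wild-type replicate 1 alone. The 9 matched hepatocyte markers summed to 22747 to 36127 RPKM in knock-out libraries and 19042 to 42502 in wild-type libraries, lowest in wild-type replicate 1, and all 7 stellate cell markers were at 0 throughout. Fewer cells of a type and less RNA per cell cannot be told apart in such bulk samples.

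**Figure D1:**
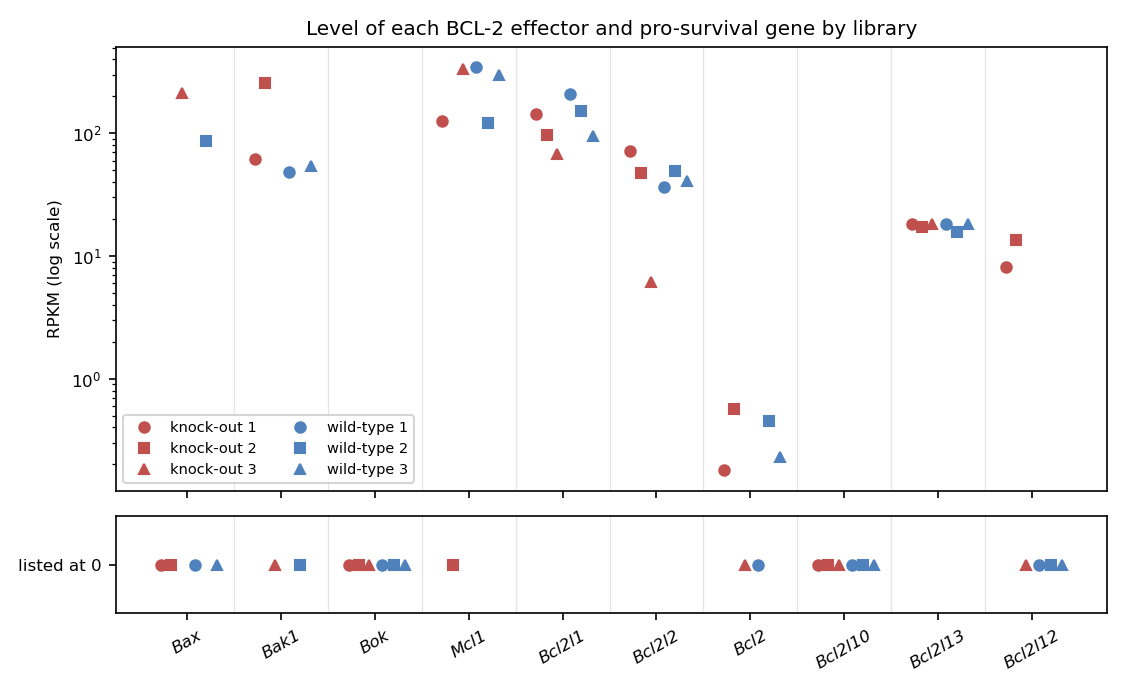
RPKM of each gene in each library on a log axis, knock-out in red and wild-type in blue, one symbol per replicate, with values of exactly 0 in the lower strip. Bcl2l1, Bcl2l2 and Bcl2l13 had reads in all 6 libraries, Bok and Bcl2l10 in none, and Bcl2l13 kept the narrowest range of the genes with reads throughout, 15.7 to 18.4 RPKM.

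No difference between knock-out and wild-type hepatocytes passed the test in any of the genes followed. Of the 10 genes, 7 reached a mean of 1 RPKM and were tested with limma on log2(RPKM + 1) across all 11021 genes at that level, where 87 (0.789%) were called at an adjusted p below 0.05, 0.372% as higher and 0.417% as lower in knock-out. Of the 7, 0 were called and 0 had an unadjusted p below 0.05, which 1.89% of all genes tested had. As an alternative, voom, run on the estimated reads divided by 2, called 0 of 8. Only Bcl2l1, Bcl2l2 and Bcl2l13 had reads in every library. In a fit of the 5538 genes with reads in every library, limma called 0 (0%) and 130 (2.35%) had an unadjusted p below 0.05. The ranges of knock-out and wild-type overlapped in RPKM for all 3 (the groups did not overlap for 5.94% of those 5538 genes).

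Bax, the effector that moves from the cytosol to the mitochondria when active, had 0, 0 and 3268 estimated reads across the knock-outs, against 0, 2101 and 0 in the wild-types (0, 0 and 212 RPKM, against 0, 87.2 and 0 RPKM). Each group thus had a single library with reads and 2 at 0. Bax (ENSMUSG00000003873) lies on the minus strand of chromosome 7 from 45461697 to 45466898 (GRCm38), and in the files it shares a locus with Dhdh, a dihydrodiol dehydrogenase gene, because the annotated gene Gm45808 spans both. The locus as a whole was read in every library, with 3946, 4320 and 4096 reads in knock-outs, against 4373, 3746 and 4157 in wild-types. In the 4 libraries with Bax at 0, all reads of the locus were assigned to Dhdh. Bax received 79.8% of the locus in knock-out replicate 3 and 56.1% in wild-type replicate 2.

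The Bax and Dhdh locus together had 152.5 ± 11.4 RPM in knock-outs, against 141.0 ± 18.2 in wild-types (SD, n = 3 each). The fitted difference was 0.12 on the log2(RPM + 1) scale, with a 95% interval from -0.22 to 0.45, in a fit chosen after the zeros had been seen (limma adjusted p = 0.940; exact two-sided permutation p = 0.5, where 0.1 is the smallest possible). In that fit 94 of 10731 loci (0.876%) were called and 1.13% had an unadjusted p below 0.05. How many of these reads came from Bax cannot be told from the files. All Bax reads of knock-out replicate 3 went to ENSMUST00000211365, a model of 801 bases and 6 exons, and all those of wild-type replicate 2 to ENSMUST00000210392, with 1100 bases and 5 exons. ENSMUST00000033093, the model with the longest coding sequence (192 codons), received 0 reads.

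**Figure D2:**
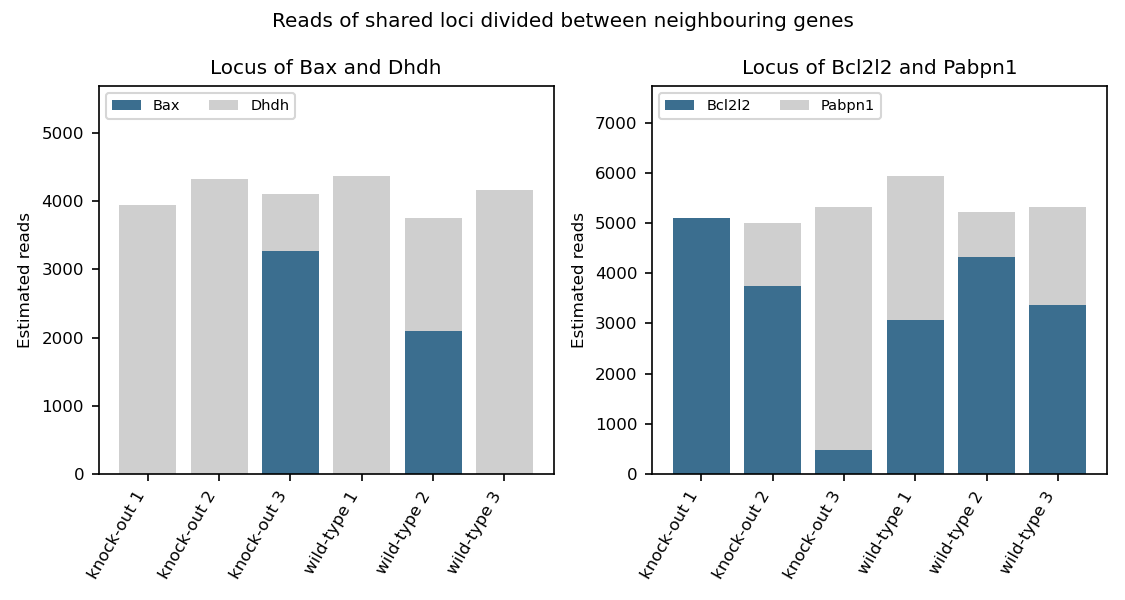
Estimated reads of the locus shared by Bax and Dhdh (left) and of that shared by Bcl2l2 and Pabpn1 (right) in each library, knock-out libraries on the left of each panel, with the part assigned to each gene stacked. The total height stays between 3746 and 4373 reads for the first and between 4990 and 5944 for the second, while the part assigned to Bax or Bcl2l2 varies from library to library.

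Bak1, the effector that sits in the outer mitochondrial membrane at rest, had 2972, 2182 and 0 estimated reads across the knock-outs, against 2402, 0 and 2676 in the wild-types. Where it was read at all, the groups overlapped, and in the 2 libraries at 0 the whole locus was at 0. Bak1 (ENSMUSG00000057789) lies alone at its locus on the minus strand of chromosome 17, from 27019810 to 27029009. Its RPKM spread much more widely than its reads, with 61.5, 258 and 0 in knock-outs, against 48.0, 0 and 54.6 in wild-types. The high value of knock-out replicate 2 came from its 2182 reads being assigned to ENSMUST00000143158, of 426 bases, while the other 3 libraries with reads had them on ENSMUST00000078691, of 2387 bases. Per kilobase of that longer model, knock-out replicate 2 stood at 46.1 RPKM, the lowest of the 4.

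Bok, the third effector, was listed at 0 in all 6 libraries, and so were all 5 of its annotated transcripts.

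Mcl1 encodes a short-lived pro-survival protein that binds BIM, BAK and others. It had 8744, 0 and 7148 estimated reads across the knock-outs, against 12308, 9046 and 8426 in the wild-types. The highest value was that of wild-type replicate 1, the library rich in macrophage genes, and knock-out replicate 2 was at 0 over the whole locus. Leaving that zero out, Mcl1 stood at 309.6 and 282 RPM in the other knock-out libraries, against 436, 291 and 299.5 in wild-types. On the log2(RPKM + 1) scale with the zero taken as missing, knock-out minus wild-type was -0.18 with a 95% interval from -1.87 to 1.52 (limma adjusted p = 0.999, 2 against 3 libraries). The interval allows more than a 2-fold change either way.

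Mcl1 (ENSMUSG00000038612) lies on the plus strand of chromosome 3 from 95658788 to 95663176, and 2 transcripts are annotated. ENSMUST00000037947 has 3418 bases and codes for 331 residues. ENSMUST00000178686 has 858 bases and 285 codons, ends at 95660823 just after its coding sequence, and lacks a segment of 138 bases (46 codons) of the first exon, from 95658909 to 95659046. The segment is shown because the assignment of reads to one or the other transcript sets much of the RPKM of Mcl1; it is in capitals in the long transcript (chr3:95658879-95659076, plus strand) and the short one joins the flanks directly.
Mcl1 long transcript: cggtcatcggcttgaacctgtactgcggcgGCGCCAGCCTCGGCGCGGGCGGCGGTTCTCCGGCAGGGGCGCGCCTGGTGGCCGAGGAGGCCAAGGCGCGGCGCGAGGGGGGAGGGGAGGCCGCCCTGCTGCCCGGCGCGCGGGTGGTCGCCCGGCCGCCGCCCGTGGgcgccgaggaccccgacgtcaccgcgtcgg
Mcl1 short transcript: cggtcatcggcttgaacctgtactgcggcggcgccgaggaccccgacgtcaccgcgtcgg
The short transcript received 69.5% of the Mcl1 reads in knock-out replicate 3, 34.0% in wild-type replicate 1 and 50.4% in wild-type replicate 3, and none in knock-out replicate 1 or wild-type replicate 2. Those 3 libraries were the ones with high RPKM, at 334, 346 and 300.4, against 126 in knock-out replicate 1 and 121 in wild-type replicate 2. Each group held a library with the long transcript alone and at least 1 with both, and the difference in shares was not tested.

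Bcl2l1 encodes BCL-XL, which guards mitochondria in hepatocytes and binds BIM tightly. It was read in every library, with 3582, 4500 and 3334 estimated reads in knock-outs, against 4632, 4024 and 4158 in wild-types. Its RPKM were 143, 96.7 and 67.5 in knock-outs, against 211, 153 and 95.4 in wild-types, with means of 102.5 ± 38.2 for knock-outs and 153 ± 57.8 for wild-types (SD, n = 3 each). The groups overlapped on both scales. Knock-out minus wild-type was -0.57 (SE 0.42) on the log2(RPKM + 1) scale, with a 95% interval from -1.64 to 0.50 (limma adjusted p = 0.941; exact two-sided permutation p = 0.3). Without wild-type replicate 1, the highest in RPKM, or without knock-out replicate 3, the lowest, it was -0.30.

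The spread of Bcl2l1 lay in the assignment of reads to transcripts more than in the reads. Between the highest and the lowest library RPKM differed 3.13-fold and reads 1.39-fold. In RPM the means were 140.4 ± 19.5 in knock-outs, against 147 ± 17.3 in wild-types (SD, n = 3 each), a fitted difference of -0.07 with a 95% interval from -0.45 to 0.31 (exact two-sided permutation p = 0.7). Bcl2l1 (ENSMUSG00000007659) lies on the minus strand of chromosome 2 from 152780668 to 152831728 and has 9 annotated transcripts, of which 3 received reads. ENSMUST00000109820, with 3 exons and the full coding sequence of 233 codons, took 30.8%, 88.7% and 100% of them in knock-outs, against 47.1%, 15.2% and 74.8% in wild-types. The other models, ENSMUST00000128172 of 1403 bases and ENSMUST00000134357 of 686 bases, have 2 exons each and lie in the 5′ part of the gene. The shortest took 52.9% of the reads of wild-type replicate 1, the library with the highest RPKM.

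**Figure D3:**
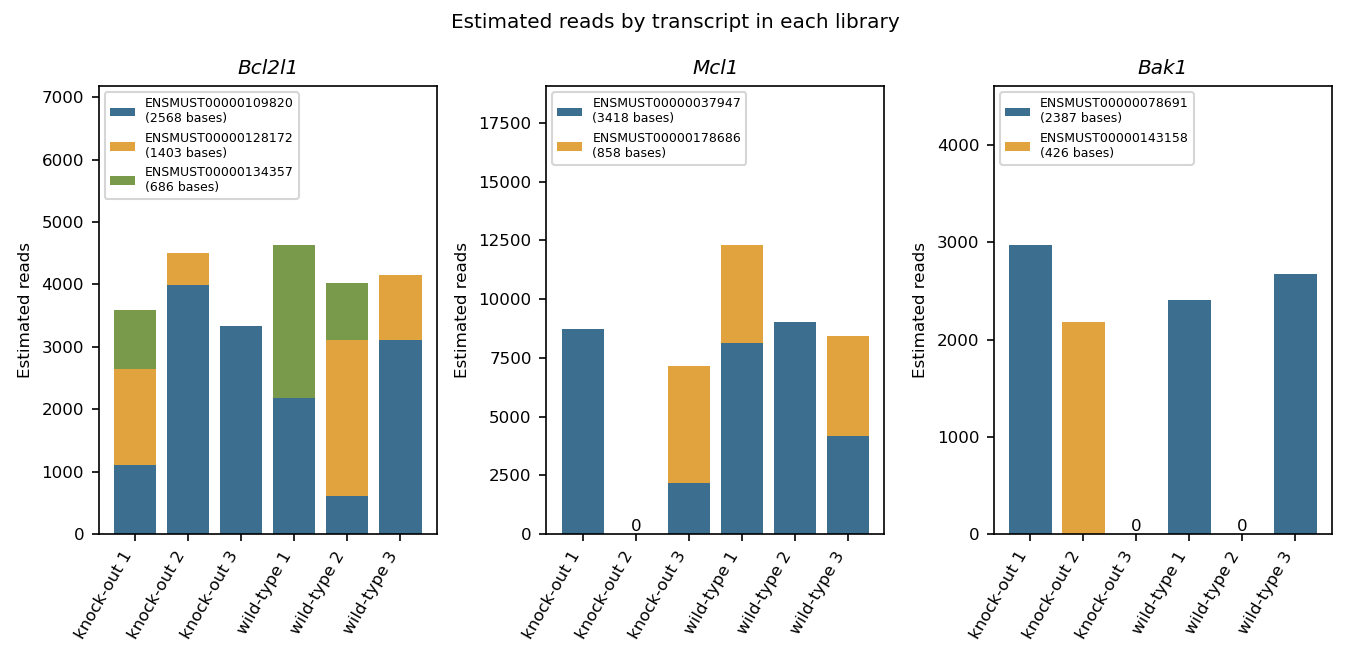
Estimated reads of Bcl2l1, Mcl1 and Bak1 in each library (knock-out first), stacked by the transcript they were assigned to, with the length of each transcript in the legend. For Bcl2l1 the bars lie between 3334 and 4632 reads while their make-up changes from library to library, and the 2182 reads of Bak1 in knock-out replicate 2 lie on the 426-base model alone.

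Bcl2l2 encodes BCL-W, a pro-survival protein with a groove like that of BCL-XL. It had 5092, 3754 and 469 estimated reads in knock-outs, against 3058, 4319 and 3372 in wild-types. The RPKM were 71.7, 47.3 and 6.08 in knock-outs, against 36.4, 49.2 and 41.0 in wild-types, so that the knock-out group held both the highest and the lowest value. The fitted difference was -0.56 (SE 0.94), with a 95% interval from -2.99 to 1.88 (limma adjusted p = 0.965; exact two-sided permutation p = 0.9). The sign rested on knock-out replicate 3, without which the difference was 0.47 (adjusted p = 0.954 in limma).

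Bcl2l2 (ENSMUSG00000089682, plus strand of chromosome 14, from 54883377 to 54888234) shares its locus with Pabpn1, the gene of the nuclear poly(A)-binding protein, since the annotated gene Gm20521 runs through both. The locus held 4990 to 5326 reads across the knock-outs, against 5216 to 5944 in the wild-types. Of these, Bcl2l2 received 100%, 75.2% and 8.81% in knock-outs, against 51.5%, 82.8% and 63.3% in wild-types, and the rest went to Pabpn1. All Bcl2l2 reads of knock-out replicate 1 lay on ENSMUST00000022806, of 3509 bases, and those of the other 5 libraries on ENSMUST00000133397, of 4008 bases. Knock-out replicate 3, where Bcl2l2 was lowest, had 4857 of its 5326 reads on Pabpn1. The locus as a whole measured 190.3 ± 17.3 RPM in knock-outs, against 189 ± 21.4 in wild-types (SD, n = 3 each), a difference of 0.012 with a 95% interval from -0.30 to 0.33 (exact two-sided permutation p = 1).

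Bcl2, the founding member of the family and the partner of BIM best known from lymphocytes, was barely read. It had 26, 80 and 0 estimated reads in knock-outs, against 0, 66 and 34 in wild-types, 0.56 RPKM at most, and did not reach the level at which genes were tested. Both groups had a library at 0 and the rest overlapped.

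Bcl2l10, a relative known as Diva or Boo in the mouse and expressed mainly in the ovary, was listed at 0 in all libraries. Its locus has a single transcript of 1220 bases, so that no division between transcripts enters. There, 3 estimated reads would stand at 0.112 to 0.128 RPKM, depending on the library. Estimated reads were mostly even: of the locus totals that were whole numbers, 92.28% to 92.98% were even, depending on the library. If reads were counted in steps of 2, the level that 0 reads allow by counting error alone would be higher than these RPKM. No difference between the groups was detectable at this depth.

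Bcl2l13, the gene of BCL-RAMBO, an outer-membrane protein that serves as a receptor in the removal of mitochondria, was the steadiest of the set. Its estimated reads were 2529, 2380 and 2409 in knock-outs, against 2354, 2384 and 2612 in wild-types. In RPKM it averaged 17.8 ± 0.425 in knock-outs, against 17.4 ± 1.48 in wild-types (SD, n = 3 each). The difference was 0.035 (SE 0.13) with a 95% interval from -0.31 to 0.38 on the log2(RPKM + 1) scale (limma; exact two-sided permutation p = 1), the narrowest interval of the 3 genes read throughout. The gene (ENSMUSG00000009112, plus strand of chromosome 6, from 120836212 to 120892842) had nearly all reads on ENSMUST00000009256, of 6925 bases, and 183 reads of wild-type replicate 1 on the retained-intron model ENSMUST00000204004.

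Bcl2l12, described in human glioma cells as an inhibitor of caspases and p53, had reads in 2 libraries, both knock-out: 170, 266 and 0 estimated reads in knock-outs, against 0, 0 and 0 in wild-types (8.16, 13.5 and 0 RPKM, against 0 in each). It was not called, with a limma adjusted p of 0.941 and an unadjusted p of 0.0852. Without knock-out replicate 3, the one knock-out library at 0, Bcl2l12 was called (adjusted p = 0.0370), in a setting in which 177 genes were called in all. The locus (ENSMUSG00000003190, minus strand of chromosome 7, from 44991222 to 44998712) was at 0 as a whole in the other 4 libraries, and has 6 annotated transcripts. Whether its zeros are missing estimates was not tested.

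**Figure D4:**
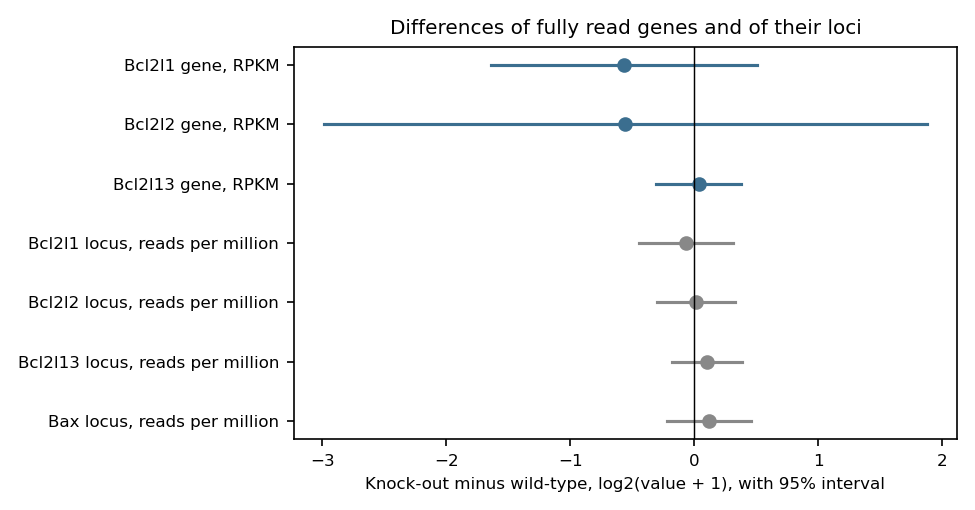
Knock-out minus wild-type on the log2(value + 1) scale with 95% intervals from limma, for the 3 genes read in every library (RPKM) and for loci of members in RPM, which for Bax and Bcl2l2 include a neighbouring gene. All intervals include 0, and those of Bcl2l1 and Bcl2l2 narrow from RPKM of the gene to reads of the locus.

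Placed in order of level, the median over the 6 libraries was highest for Mcl1 at 213 RPKM and next for Bcl2l1 at 120.0, with Bak1 at 51.3, Bcl2l2 at 44.1, Bcl2l13 at 18.1 and Bcl2 at 0.20, and 0 for Bax, Bok, Bcl2l10 and Bcl2l12. The 4 zeros of Bax fell in libraries whose shared locus had 3946 to 4373 reads, all on Dhdh, and Bax stood at 212 RPKM in knock-out replicate 3 and at 87.2 in wild-type replicate 2. The ranges of neighbours in this order overlapped for Mcl1 and Bcl2l1, for Bcl2l1 and Bak1, for Bak1 and Bcl2l2 and for Bcl2l2 and Bcl2l13, and did not for Bcl2l13 and Bcl2. With each gene's reads set against a fixed length, its longest protein-coding model placed alike in GENCODE M21, the medians were 120.5 for Mcl1, 75.2 for Bcl2l1, 50.4 for Bcl2l2, 47.1 for Bak1 and 17.7 RPKM for Bcl2l13. The place of Bak1 below Bcl2l2 rested on its 2 zeros: in the 4 libraries where it was read, it lay at 46.1 to 61.5 RPKM on that scale. On that scale Mcl1 lay at 108.7 to 172 RPKM in the 5 libraries where it was read, above the 67.5 to 88.4 RPKM of Bcl2l1 in all 6, and Bcl2l1 lay above Bcl2l13, at 15.7 to 18.4, in every library. By the median Mcl1 and Bcl2l1 thus stood highest among the pro-survival genes. The order did not hold in every library: in knock-out replicate 1 Bcl2l2 stood at 71.7 and Bcl2l1 at 68.9 RPKM on that scale, and Mcl1 was at 0 in knock-out replicate 2.

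Genes whose pattern over the 6 libraries was most like that of a member were sought for Bcl2l1 and Bcl2l2, which spanned more than 1 on the log2 scale. Closest to Bcl2l1 were Ric1 and Hipk1, with root-mean-square differences of 0.19 and 0.21 in centred log2(RPKM + 1) over 6 libraries, against a median of 0.59 over 4218 genes. Closest to Bcl2l2 were Hnrnpr and Ehmt1, at 0.41 and 0.45, against a median of 1.12. These genes were picked for the smallest differences among 4218 genes over 6 libraries, so their closeness was set by the choice. The patterns matched also carry the assignment of reads: Bcl2l1 spread 3.13-fold in RPKM and 1.39-fold in reads. Bcl2l2 was lowest in knock-out replicate 3, where it received 8.81% of its shared locus. Whether the genes are related in any way was not tested.

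The A1 genes, mouse pro-survival relatives known from blood cells, were high in wild-type replicate 1 alone. Bcl2a1a measured 4.83, 3.08 and 4.82 RPKM in knock-outs, against 53.3, 4.79 and 3.92 in wild-types, and Bcl2a1d 6.19, 3.16 and 6.98 in knock-outs, against 71.7, 6.03 and 5.30 in wild-types. Bcl2a1b was at 0 except in wild-type replicate 1, where it stood at 290.2 RPKM. These genes are near-identical copies, so the split between them is uncertain. The summed macrophage markers were likewise highest in that library, 4524 RPKM against 78.6 to 140.0, and their part in the A1 and Mcl1 values was not tested.

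**Figure D5:**
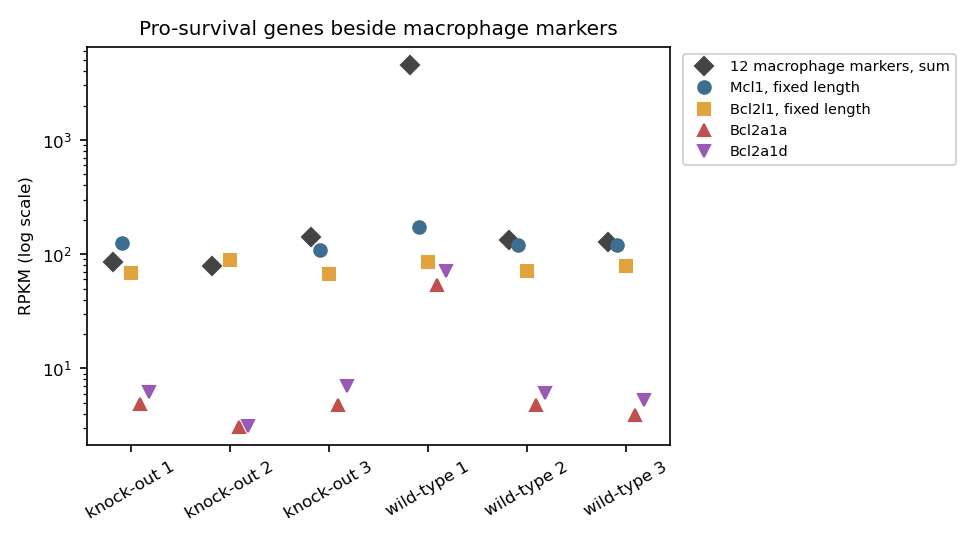
Summed RPKM of 12 macrophage markers, RPKM of Bcl2a1a and Bcl2a1d, and RPKM of Mcl1 and Bcl2l1 at a fixed transcript length, by library on a log axis (Mcl1 of knock-out replicate 2, at 0, is not drawn). Wild-type replicate 1 stands out for the markers and both A1 genes, by less for Mcl1 (172 RPKM), and not for Bcl2l1.

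The other genes of the family formed a list of BH3-only genes, the A1 genes and more distant relatives. None of 13 tested passed (0 higher and 0 lower), and 0 had an unadjusted p below 0.05. Over all genes tested those shares were 0.789% and 1.89%. The median difference of the list was -1.16, against -0.01 over all genes tested. Over the 5 genes of the list with reads in every library the median was -0.01, and the others tested had zeros. The median of -1.16 was itself the value of Bcl2a1a, which had reads in every library and was highest in wild-type replicate 1. Bid, which is cleaved by caspase-8 to become active, measured 84.4 ± 11.0 RPKM in knock-outs, against 65.8 ± 7.06 in wild-types (SD, n = 3 each; limma adjusted p = 0.941), and Bad, controlled by phosphorylation, 31.1 ± 4.81 RPKM in knock-outs, against 31.2 ± 3.07 in wild-types. Bik stood at 2.43 to 5.46 and Pmaip1, which encodes NOXA, at 0.11 to 2.27 RPKM, highest in wild-type replicate 1, the library rich in macrophage genes. Bbc3, the gene of PUMA, had 0, 18.9 and 14.5 RPKM in knock-outs, against 67.4, 16.9 and 12.6 in wild-types. The 67.4 RPKM of wild-type replicate 1 stood on 572 estimated reads, within the 468 to 678 of the other libraries that read it. Bmf was read in knock-out replicate 1 alone, at 8.47 RPKM. Bcl2l15 and Bnip3 were read in knock-out replicate 3 alone and Bnip3l in wild-type replicate 2 alone. Becn1 had 0, 0 and 2636 estimated reads in knock-outs, against 3137, 2880 and 2996 in wild-types, and was not called (limma adjusted p = 0.941).

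Partners and regulators of the outer mitochondrial membrane were read more fully. None of 14 tested passed (0 in either direction), against 0.789% of all genes tested. An unadjusted p below 0.05 was found for 1, as for 1.89% of all genes tested, and the median difference was 0.04. The genes named first are the 3 with the highest median RPKM among those read in every library. Tmbim6, also called BAX inhibitor 1, a protein of the endoplasmic reticulum, measured 1279.6 ± 436 RPKM in knock-outs, against 858 ± 268 in wild-types. The channel gene Vdac2, whose product brings BAK to the membrane, measured 199 ± 35.1 in knock-outs, against 206 ± 17.8 in wild-types, and Vdac3 271 ± 10.5 in knock-outs, against 270.3 ± 6.90 in wild-types (SD, n = 3 each). Vdac1, named after its values were seen, lay at 156 to 168 RPKM in knock-outs, against 177 to 338 in wild-types, and was not called (limma adjusted p = 0.941). Its groups did not overlap in RPKM, as for 5.94% of the 5538 genes with reads in every library. In estimated reads they overlapped, with 5882, 6744 and 6200 in knock-outs, against 6310, 7022 and 7368 in wild-types. Mfn2, a mitofusin that joins outer membranes, was the single gene with an unadjusted p below that level, named after its values were seen: 48.3 ± 4.24 RPKM in knock-outs, against 35.4 ± 5.75 in wild-types. Its adjusted p in limma was 0.941, with an unadjusted p of 0.0437. The estimated reads of Mfn2 overlapped, at 3418 to 3660 in knock-outs, against 2666 to 3610 in wild-types.

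Of the genes of the turnover and binding of MCL-1 and BAX, 0 of 12 tested passed and 0 had an unadjusted p below 0.05. Over all genes tested those shares were 0.789% and 1.89%. The median difference of the list was 0.03. Tpt1, which encodes a protein that binds MCL-1, measured 3487 ± 314 RPKM in knock-outs, against 3897 ± 565 in wild-types, Bag1, a chaperone partner that binds BCL-2, 134 ± 3.99 in knock-outs, against 129 ± 8.41 in wild-types, and Huwe1, a ubiquitin ligase for MCL-1, 73.6 ± 5.62 in knock-outs, against 73.3 ± 7.75 in wild-types (SD, n = 3 each). Downstream, 10 of 12 genes of cytochrome c release and the apoptosome were tested and 0 passed, with 0 at an unadjusted p below 0.05. The shares over all genes tested were again 0.789% and 1.89%, and the median difference of this list was 0.05.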

How the data were processed

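Single-end libraries of polyadenylated RNA were made, per the labels' protocols. Per the submitters' processing notes the aligner was TopHat2 (version 2) and the build GRCm38, also called mm10. What divided reads among transcripts, and whether strand was used: not given in the sources used here. The deposited files list 118492 transcripts with an estimated read count and an RPKM each, per the file contents. The authors' RPKM rest on library totals of 19245556 to 21899881 reads, below the sums in the files, which were used for RPM (reads scaled to library size).

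From the files, reads and RPKM were summed per gene (symbols matched for 47993 of 48353 genes) and tested with limma 3.58.1 in R 4.3.3 (trend, two-sided, Benjamini-Hochberg adjustment over every gene averaging 1 RPKM or more, pseudocount 1). Since the reads are estimates shared out among transcripts, no test made for whole counts was the main one. The route was tested on simulated data modelled on genes with reads in every library, so that test did not cover genes with zeros. Groups and replicate numbers come from the titles. Alternatives covered pseudocount, filter, scaling, zeros, transcript choice, voom, a replicate block and left-out libraries; sums over loci and fixed-length levels were added after seeing the data. Of the marker lists, Tf was not matched by symbol. Transcript types, exons and coding sequences are from GENCODE M21 where coordinates were the same. Genes named are all 10 members, Bcl2l11, members of 3 lists past the test, their 3 highest by median RPKM with reads in every library and every other family gene with reads, and the 2 nearest patterns. The members and lists were chosen with earlier results of these data known. Python 3.11.15, pandas 2.3.3, numpy 2.4.6 and matplotlib 3.10.9 were used.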

Additional observations from a re-analysis of the deposited data

How the results depend on the processing

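Of the 60 member values 25 were at 0, which limits what can be compared. The cause of the shifts below was not tested. The count of 87 genes called was 0 with genes read in every library only, 0 with zeros at loci of several transcripts taken as missing and 0 with a replicate block, and 171 to 198 with 1 library left out, where 1 group keeps 2 libraries. Members called were 0 under the other settings run and 0 to 1 with 1 library left out (Bcl2l12, without knock-out replicate 3). In the fits over genes the difference of Bcl2l1 stayed negative under every alternative, though not in the fits over loci given below. It ran from -2.42 with the highest transcript only to -0.06 with voom, and from -0.87 to -0.30 with a library left out. Bcl2l2 ran from -2.62 to -0.40, and from -1.21 to 0.47 with a library left out, and Bcl2l13 from 0.014 to 0.12, and from -0.034 to 0.072. No adjusted p of these 3 genes was below 0.849. Of loci, 94 were called, 59 with a replicate block and 201 to 221 with a library left out, and member loci 0 to 1. With a library left out the locus difference of Bcl2l1, the only gene at its locus, was -0.18 to 0.013. It was above 0 without knock-out replicate 1 (9.3e-06) and without wild-type replicate 1 (0.013). For Bcl2l2 the locus difference was -0.072 to 0.091 with a library left out, and -0.013 when rescaled to a common median. Deviations of same-numbered libraries correlated at -0.16, -0.05 and -0.01 across genes, and no library correlated best with its own number. With 3 libraries per group these correlations cannot exclude a pairing by replicate number. With a replicate block the difference of Bcl2l1 stayed at -0.57, with an SE of 0.11 in place of 0.42 (limma unadjusted p = 0.0159, adjusted p = 0.892).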
